A study of Arabidopsis thaliana with 6 samples.

Results

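STZ and CML38 are genes of Arabidopsis thaliana whose transcripts accumulate when a plant is touched, and their levels were followed here in root tips. STZ (AT1G27730, also called ZAT10) and CML38 (AT1G76650) were each measured by 1 probe set of the Affymetrix ATH1 array, and the array annotation gives that probe set to the gene alone. They are 2 of the 13356 genes with a probe set of their own in that annotation, and their probe sets are 2 of 22746 on the array, array controls aside. The data set held 6 arrays, 1 per sample, in 3 groups of 2: roots labelled as treated with gibberellin (GA) at 120 min, untreated roots at 120 min, and untreated roots at 0 min. All came from root tips of seedlings aged 7 days with the genetic background Col-0, grown in continuous light on sucrose-containing plates. For the GA samples the labels give GA2oxOE1I as source name and a gene knock out as genetic variation, neither of which is given for the untreated samples, so that a change of line and the GA treatment cannot be told apart. The GA dose and the way in which the untreated roots were handled between 0 and 120 min are not given in the sources used here. No sample was labelled as touched.

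STZ encodes a zinc finger protein of the C2H2 class that represses transcription through an EAR motif, and its transcript is known to accumulate after cold, salt, drought, wounding and mechanical stimulation. CML38 encodes a calmodulin-like protein with EF-hands, the loops that bind calcium, and it is known both as a touch- and wound-induced gene and as one of the core genes induced by low oxygen. In touched plants a short rise of calcium in the cytosol is followed by the accumulation of many such transcripts, which then decline again. GA is a hormone that promotes growth by relieving the repression exerted by DELLA proteins.

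Signals are MAS5 values on a linear scale, scaled so that the mean of each array without its lowest and highest 2% was 100.0. Array quality was unequal: for actin the signal at the 3' end over that at the 5' end, a ratio that is high where RNA is degraded or labelling is incomplete, was 14.8 on GA replicate 1, and it was higher on replicate 1 than on replicate 2 in each group. It read 14.8 and 2.52 in GA roots, 4.44 and 2.22 in untreated roots at 120 min and 4.94 and 2.43 at 0 min (replicates 1 and 2), and the same ratio for GAPDH had the same order in each group. Replicates correlated at 0.905 (GA, 120 min), 0.944 (untreated, 120 min) and 0.957 (untreated, 0 min) across 13647 tested probe sets. Among root markers UPB1, a regulator of root growth, read 127 to 296, and EXPA7, an expansin of root hair cells, read 175 to 391. The green tissue markers RCA (Rubisco activase) and LHCB4.1 (a light-harvesting protein) read 109 to 339 and 41.9 to 123. Detection calls were not used, so these signals do not show which transcripts were present. Of the 21 root tip markers listed only 4 had a named probe set. Of these, BBM lay below the signal filter at 1.46 to 23.6.

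STZ gave its highest signals in GA roots and its lowest in untreated roots, except for 1 untreated array at 120 min. It read 103 and 151 on the GA arrays, 50.03 and 122 on the untreated 120 min arrays, and 56.0 and 54.4 on those at 0 min (replicates 1 and 2 in each case). The 2 arrays at 0 min were nearly the same, and untreated replicate 1 at 120 min lay just below them, while untreated replicate 2 at 120 min fell between the 2 GA arrays. As group means, STZ stood at 127 ± 33.9 in GA roots, 86.0 ± 50.9 in untreated 120 min roots and 55.2 ± 1.096 at 0 min (SD, n = 2 each). The first 2 of these groups overlap, as do the last 2, while the GA and the 0 min arrays do not. In such samples of whole root tips, fewer cells of a type and less RNA per cell cannot be told apart. Within each array, STZ was brighter than 73.3% and 81.2% of all probe sets in GA roots, 56.2% and 76.9% in untreated roots at 120 min, and 57.5% and 57.8% at 0 min, so the order of the arrays was the same by rank, except that the 2 arrays at 0 min changed places.

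CML38 was dim and close to even across the arrays. It read 26.7 and 28.5 on the GA arrays, 31.5 and 30.2 on the untreated 120 min arrays, and 31.0 and 13.8 on those at 0 min. A single array, untreated replicate 2 at 0 min, stood apart, and the other 5 lay within 26.7 to 31.5. The group means were 27.6 ± 1.33 in GA roots, 30.8 ± 0.940 in untreated roots at 120 min and 22.4 ± 12.2 at 0 min (SD, n = 2 each). Its mean over the 6 arrays, 26.9, was only just above the filter of 25.8 (the 40th percentile of all probe sets) that decided which probe sets were tested. MAS5 gives a signal to every probe set, and detection calls were not used here, so these values do not show that the transcript was present. Ordered by mean, CML38 was highest in untreated roots at 120 min, then in GA roots, then at 0 min. The first 2 of these differed by a small margin without overlap, and the 0 min arrays overlapped the untreated 120 min arrays and spanned the GA arrays.

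**Figure D1:**
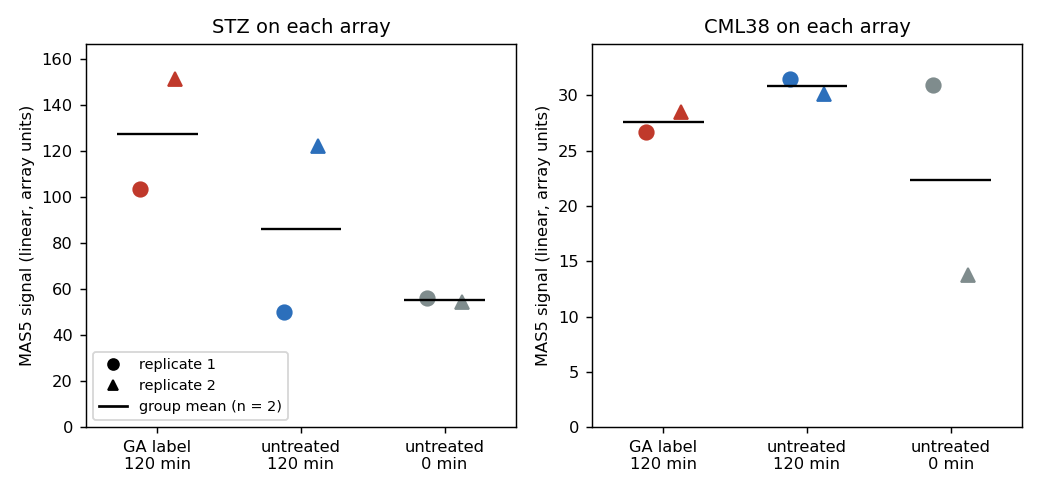
MAS5 signal of STZ (left) and CML38 (right) on each of the 6 arrays by group, with circles for replicate 1, triangles for replicate 2 and a line at the mean of the 2 arrays. STZ reads 103 and 151 in GA roots against 56.0 and 54.4 at 0 min, with the untreated arrays at 120 min on both sides of that gap, and CML38 lies near 30 on all arrays but 1.

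The spread between replicates differed between the 2 genes and between groups. For STZ the replicates of untreated roots at 120 min were 1.06 apart in log2(signal + 16), more than for 97.0% of the tested probe sets in that group, whose median gap was 0.28. The STZ gaps in GA roots and at 0 min were 0.49 and 0.031, larger than those of 62.1% and 7.20% of probe sets in the same groups. CML38 showed the reverse: its gap was 0.66 at 0 min, larger than for 90.8% of probe sets, and 0.062 in GA roots and 0.041 in untreated roots at 120 min. Of the 2 arrays behind the STZ gap, untreated replicate 2 at 120 min had the highest signal of all 6 arrays for RCA (339) and LHCB4.1 (123). These were the only 2 of 17 listed green tissue markers with a named probe set. The 2 arrays behind that gap also differed in the actin ratio. The part of either in the STZ value was not tested. Across the 6 arrays the log2 signals of STZ and CML38 had a Pearson correlation of 0.27, given as a description over arrays that share their RNA and scaling.

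The first comparison asked which transcripts differ between GA-labelled and untreated roots at the same time, 120 min. STZ had a difference of 0.57 ± 0.35 in log2(signal + 16) (SE; 95% interval -0.24 to 1.37), which is 1.48-fold on that scale, and CML38 had one of -0.10 ± 0.34 (-0.89 to 0.68). Neither passed (limma adjusted p = 0.999 for both; unadjusted p = 0.145 for STZ and 0.771 for CML38). Limma called 0 of 13647 probe sets in this comparison, or 0.0%, with 152 at an unadjusted p under 0.05 (1.11%). The STZ difference was larger than those of 97.9% of tested probe sets, for a gene chosen with earlier results of these data known. Both GA arrays of CML38 lay below both untreated arrays, by a small margin, as was the case for 10.3% of all tested probe sets. The size of the STZ difference changed with the untreated array left out. Without untreated replicate 1 at 120 min it was 0.033, and without untreated replicate 2 it was 1.097 (limma adjusted p = 0.999 and 1). Without GA replicate 1, the array with the high actin ratio, it was 0.81, and without GA replicate 2 it was 0.32 (adjusted p = 1 and 0.791).

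The second comparison followed untreated roots over time, 120 min against 0 min. The difference was 0.42 ± 0.35 for STZ (-0.38 to 1.23) and 0.32 ± 0.34 for CML38 (SE; -0.46 to 1.11), with groups that overlapped for both genes (limma adjusted p = 1 for both; unadjusted p = 0.263 and 0.371). Again 0 of 13647 probe sets were called (0.0%), with 147 at an unadjusted p under 0.05 (1.08%). For each gene the difference depended on 1 pair of unlike replicates, and 2 arrays cannot tell which of them is the odd 1. Without untreated replicate 2 at 120 min that of STZ turned to -0.11, and without replicate 1 it was 0.96 (limma adjusted p = 1 and 0.999). For CML38 it was -0.0043 without untreated replicate 2 at 0 min and 0.65 without replicate 1 (limma adjusted p = 1 for both).

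The third comparison, GA-labelled roots at 120 min against the 0 min roots, holds both time and label and shares its arrays with the other two. STZ differed by 0.99 ± 0.35 (SE; 0.19 to 1.79), a 1.98-fold higher level on the log2(signal + 16) scale, and both GA arrays were above both arrays at 0 min, as they were for 13.0% of all tested probe sets. The unadjusted p was 0.0213, which ranked 110th of the 13647 probe sets, and it did not pass the adjustment (limma adjusted p = 1). STZ was chosen with earlier results of these data known, so this rank is a description only. For this comparison 0 probe sets were called (0.0%), with 352 at an unadjusted p under 0.05 (2.58%). With each array left out the STZ difference was 0.75 to 1.23, and it was 1.23 without GA replicate 1. As the 2 groups do not overlap, leaving out 1 array could not turn its sign. Markers of several cell types also differed by varying amounts, and none passed the adjustment. The 3 tested root tip markers were higher in GA roots than at 0 min (median 0.15), 1 of them at an unadjusted limma p under 0.05. JKD, a transcription factor of the root ground tissue, read 71.1 and 66.7 against 32.7 and 39.1, without overlap as for 13.0% of all tested probe sets. AGL42 differed by 0.15 and UPB1 by 0.056. Both tested root hair markers were lower (median -0.37): EXPA7 differed by -0.52, and EXPA18, another expansin gene, read 274 and 249.96 against 304 and 309, without overlap as for 15.0% of all tested probe sets. Both green tissue markers were lower as well (median -0.22). The part of such cells in the STZ value was not tested. CML38 differed by 0.22 ± 0.34 (-0.56 to 1.00; adjusted p = 1), and by -0.11 without untreated replicate 2 at 0 min. An exact permutation test on 2 against 2 arrays cannot give a two-sided p below 0.333, so none was used for a single gene.

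**Figure D2:**
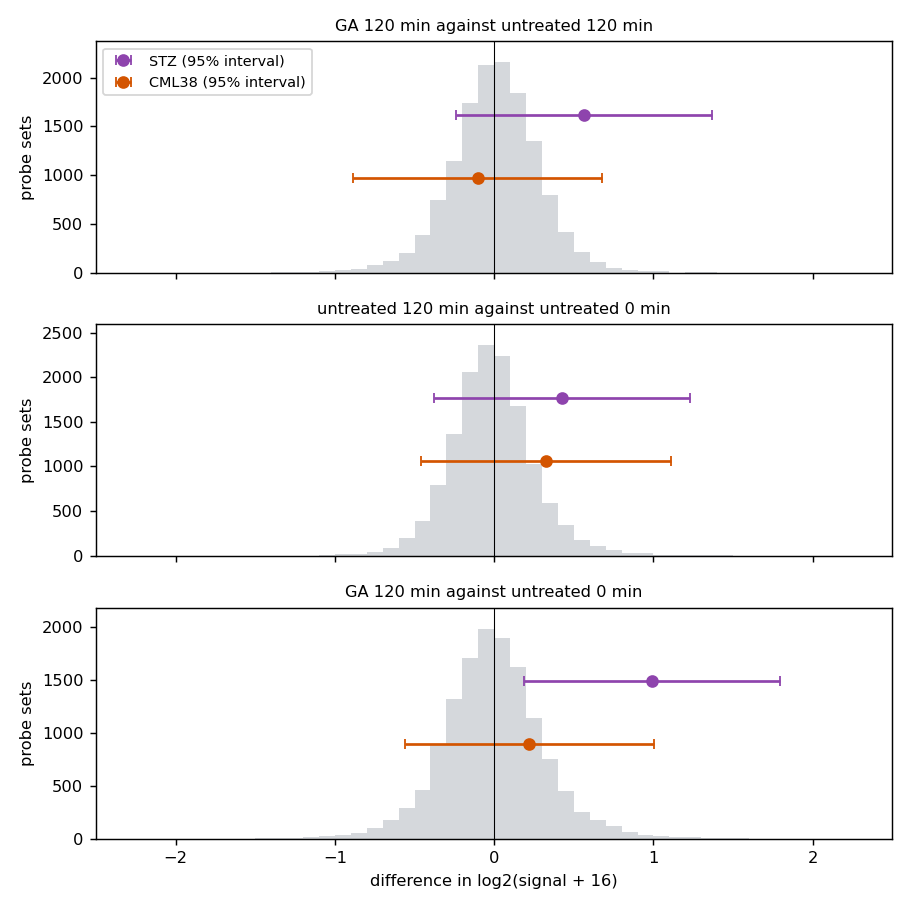
Differences in log2(signal + 16) of all 13647 tested probe sets as grey bars, in 1 panel per comparison, with STZ and CML38 as points with 95% intervals at arbitrary height. The STZ interval excludes 0 before adjustment in the lowest panel only, at 0.19 to 1.79, and the CML38 intervals include 0 in all 3.

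**Figure D3:**
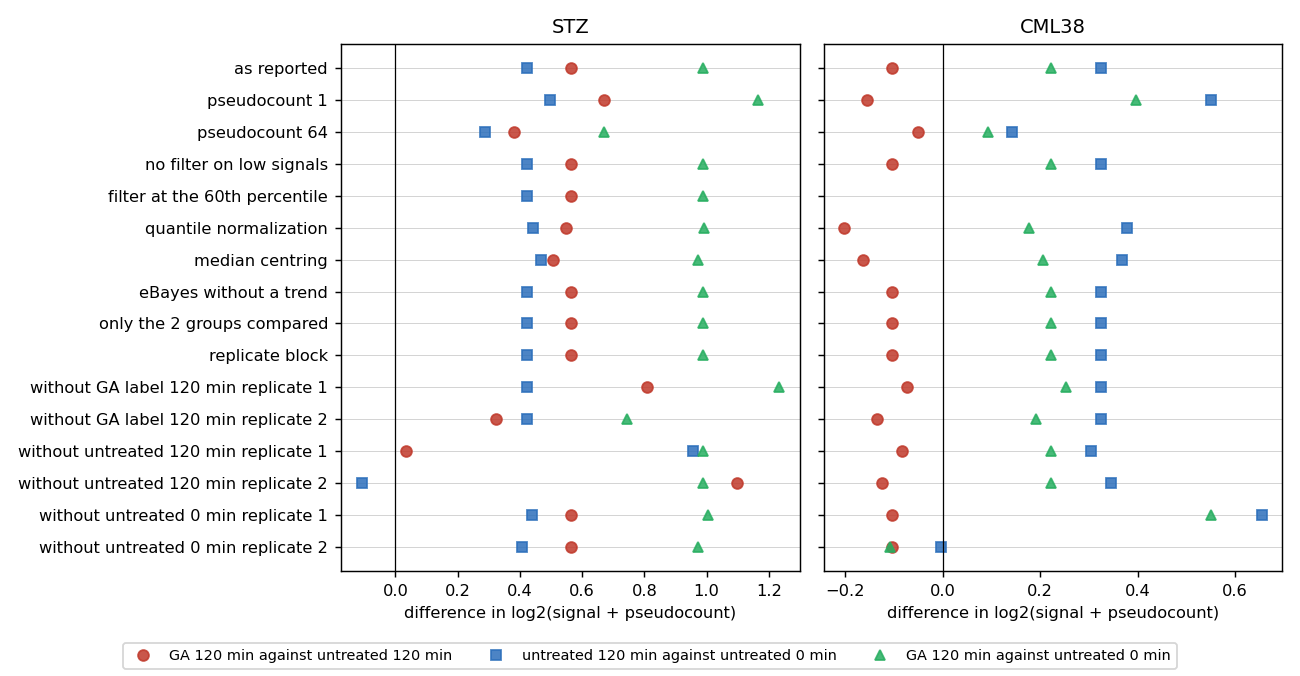
Difference in log2 for STZ (left) and CML38 (right) in the 3 comparisons, as reported and with each other setting or left-out array in a row of its own. The STZ points of the first 2 comparisons swing from 0.033 to 1.097 and from -0.11 to 0.96 as one or the other untreated array at 120 min is left out, and no CML38 point is shown at the 60th percentile filter, which removes it.

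The list of touch-induced genes held 23 genes, of which 7 had a named probe set and 5, STZ and CML38 among them, lay above the filter. TCH1, TCH2, TCH3, TCH4, WRKY33, WRKY40 and MPK3 were among those without a named probe set, so the counts below do not cover them. The annotation did not list 8730 probe sets of the array. Limma called 0 of the 5 tested genes in each comparison, with 0, 0 and 1 at an unadjusted p under 0.05 in the order of the comparisons above, the 1 being STZ. Against untreated roots at 120 min, 3 were higher and 2 lower in GA roots (median 0.14, against 0.0092 over all tested probe sets). In untreated roots all 5 were higher at 120 min than at 0 min, with a median of 0.32 against -0.020 over all tested probe sets. That median is the value of CML38 itself, which was -0.0043 without untreated replicate 2 at 0 min. On untreated replicate 1 at 120 min STZ (50.03) and CML42 (165) lay below both of their 0 min arrays. In GA roots against 0 min all 5 were again higher (median 0.40 against -0.012). The medians 0.14 and 0.40 are both the value of CML23. On GA replicate 2 CML23 read 17.7, below both of its 0 min arrays. The counts over time and of GA roots against 0 min share the 0 min arrays. WRKY53, a transcription factor of senescence and defence, read 48.2 and 84.96 in GA roots, 43.5 and 43.0 in untreated roots at 120 min, and 37.1 and 32.0 at 0 min. These 3 pairs of arrays did not overlap. The share of all tested probe sets with groups in the same order and no overlap was 11.4% for GA against untreated roots at 120 min, 11.3% for untreated roots over time and 13.0% for GA roots against 0 min. The differences of WRKY53 were 0.44, 0.23 and 0.67 in the order of the comparisons above (limma adjusted p from 0.999 to 1).

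CML42, a calcium sensor known from leaf hairs and herbivore defence, had the largest difference on the touch list over time. It read 174 and 304 in GA roots, 165 and 451 in untreated roots at 120 min, and 179 and 179 at 0 min. As with STZ, untreated replicate 2 at 120 min was far above replicate 1, and the pair at 0 min was nearly equal, so that the differences were -0.24 (GA against untreated at 120 min) and 0.58 (120 against 0 min). CML23, a close relative of the touch gene TCH2, read 51.5 and 17.7 in GA roots, 24.4 and 30.6 in untreated roots at 120 min and 20.3 and 19.8 at 0 min, with the high value on GA replicate 1.

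The closest relatives of CML38 gave little signal. CML37 read 23.5 and 6.56 in GA roots, 0.428 and 11.97 in untreated roots at 120 min and 14.0 and 4.96 at 0 min, and AT1G76640 (CML39), the gene next to CML38 on the chromosome, read 0.882 to 5.54 on all 6 arrays. Both were below the filter and were not tested. AT1G76660, the neighbour on the other side, read 22.3 and 22.4 in GA roots, 33.1 and 26.1 in untreated roots at 120 min, and 42.2 and 33.8 at 0 min, which is another order than that of CML38. Of the 61 calmodulin and calmodulin-like names listed, 37 were matched to no single gene in the RefSeq table, CML39 among them because that table gives the name to AT1G76640 and to CML37. Of the others 8 had a named probe set and 5 were tested, with 0 called by limma and 0 at an unadjusted p under 0.05 in each comparison. Among these, 2 were higher and 3 lower in GA than in untreated roots at 120 min (median -0.10). In untreated roots 5 of 5 were higher at 120 than at 0 min (median 0.32, against -0.020 over all tested probe sets). Both medians are the values of CML38 itself, and its value over time was -0.0043 without untreated replicate 2 at 0 min. CML23, CML38 and CML42 are on the touch list too, so the 2 counts over time share 3 of their 5 genes and the same arrays. CML43, a calmodulin-like calcium sensor, read 104 and 113 in GA roots, 129 and 145 in untreated roots at 120 min, and 132 and 94.5 at 0 min, so that the GA arrays lay below both untreated arrays at 120 min (difference -0.30, adjusted p = 0.999 in limma), as for 10.3% of all tested probe sets. AT2G46600 read 986 and 604 in GA roots, 593 and 773 in untreated roots at 120 min and 533 and 503 at 0 min.

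Few relatives of STZ could be compared. The list of ZAT and AZF zinc finger genes held 18 loci, of which 7 had a named probe set and 4 were tested. Of these 4, STZ alone was higher in GA roots than in untreated roots at 120 min, and its groups overlapped. AT5G03510 read 55.2 and 30.6 in GA roots and 54.4 and 64.6 in untreated roots at 120 min (difference -0.39), and AT2G28710 read 47.0 and 48.0 against 45.7 and 69.4 (-0.19). AT2G28200 read 83.3 and 75.1 in GA roots, 78.7 and 85.1 in untreated roots at 120 min and 67.8 and 59.3 at 0 min. Its arrays at 120 min, GA or not, lay above both arrays at 0 min, by 0.30 for the untreated and 0.26 for the GA roots, as for 11.3% and 13.0% of all tested probe sets, and it did not pass (limma adjusted p = 1). The other 3 loci, AT2G45120, AT3G60580 and AT3G53600, read 0.628 to 30.7 and were below the filter. By mean, AT2G45120 (24.2 against 18.5) and AT3G60580 (14.6 against 8.90) were higher in GA roots than in untreated roots at 120 min. AT3G53600 (20.9 against 21.7) was lower. None of the 8 EAR motif corepressors listed, such as TPL, had a named probe set.

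**Figure D4:**
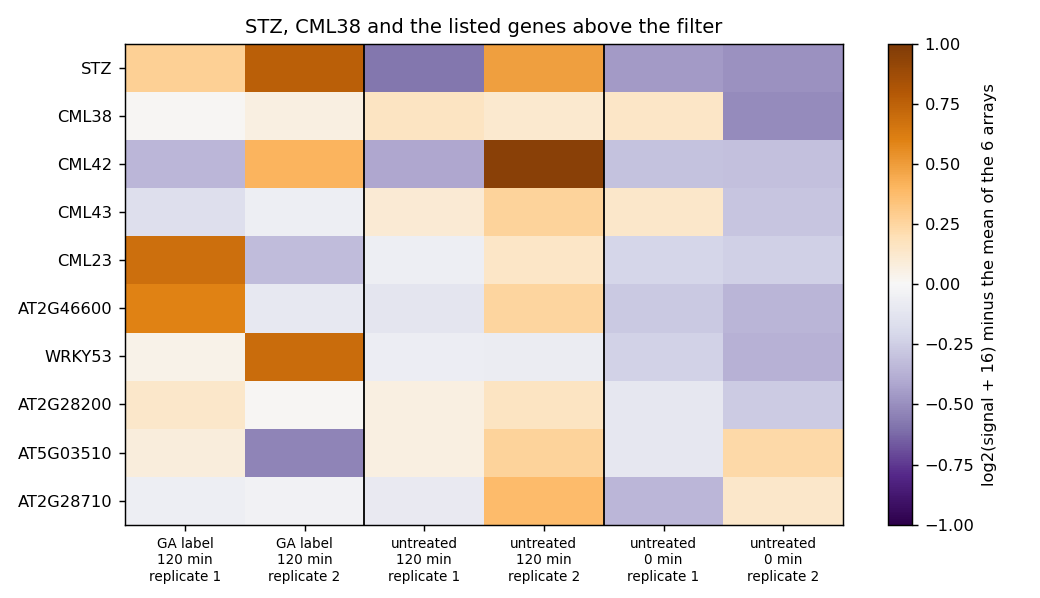
Log2(signal + 16) of each gene on each array minus its mean over the 6 arrays, for STZ, CML38 and the other 8 tested genes of the touch, calmodulin and zinc finger lists, with GA arrays at the left and 0 min arrays at the right. STZ and CML42 are both high on untreated replicate 2 at 120 min (122 and 451 in signal) and low on replicate 1 (50.03 and 165), while CML38 departs from its mean on 1 array at 0 min.

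STZ belongs with early stress genes, and 5 of the 63 listed for early stress transcription and signalling (3 names matched to no gene) had a named probe set and were tested, with 0 called by limma in each comparison and 1, WRKY22 in GA against untreated roots at 120 min, at an unadjusted p under 0.05. WRKY22, which regulates defence genes, read 47.5 and 62.5 in GA roots, 27.9 and 22.9 in untreated roots at 120 min, and 38.2 and 41.1 at 0 min, so that the untreated arrays at 120 min were the lowest, as they were against 0 min for 15.8% and against GA roots for 11.4% of probe sets (difference 0.77 for GA against untreated at 120 min, -0.43 for 120 against 0 min). The ubiquitin ligase genes PUB22 and PUB23, which dampen immune signalling, differed by -0.24 and -0.38 between GA and untreated roots at 120 min and by 0.47 and 0.38 over time. PUB23 was high on both replicate 2 arrays at 120 min, at 164 in GA and 201 in untreated roots, against 59.8 and 91.0 on replicate 1. WRKY6, a transcription factor of senescence and phosphate responses, differed by -0.0022 and -0.13.

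Genes of cold, salt and drought responses, conditions in which STZ is known to be induced, showed no difference that passed, with 0 of 2 tested genes called by limma and 0 at an unadjusted p under 0.05 in each comparison. The dehydrin gene COR47 read 1964 and 2243 in GA roots and 2218 and 2988 in untreated roots at 120 min (difference -0.29), and LTI30, another dehydrin gene, read 260 and 626 against 390 and 762 (-0.42). COR15A and COR15B, proteins that protect plastid membranes from freezing, were below the filter at 1.93 to 17.6 and 12.03 to 31.2. The active oxygen enzymes SAPX, a stromal ascorbate peroxidase, and GR, a glutathione reductase, differed by -0.15 and 0.28 between GA and untreated roots at 120 min and by -0.30 and -0.27 over time. The jasmonate transcription factors MYC3 and MYC4 differed by -0.18 and -0.0067 between GA and untreated roots, and the defensin gene PDF1.2 was below the filter at 1.42 to 25.4. GLR3.3, a glutamate receptor-like channel of wound signals, read 60.8 and 52.8 in GA roots, 44.4 and 55.8 in untreated roots at 120 min and 71.6 and 50.8 at 0 min, and was the only 1 of 82 listed calcium signalling genes, 2 of them not matched by name, with a named probe set.

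Of the 27 genes listed for low oxygen, 6 were matched to no gene by name. CML38 and 3 others had a named probe set, and all 4 were tested, with 0 called by limma and 0 at an unadjusted p under 0.05 in each comparison. PDC2, a pyruvate decarboxylase of fermentation, read 109 and 383 in GA roots, 202 and 292 in untreated roots at 120 min, and 153 and 235 at 0 min, with the replicate 2 array above the replicate 1 array in each group. AT3G10040 (HRA1), which attenuates the low-oxygen response, read 28.3 and 46.0 in GA roots, 54.9 and 21.6 in untreated roots at 120 min and 49.9 and 20.6 at 0 min. AT4G17260 read 145 and 238 in GA roots and 240 and 209 in untreated roots at 120 min. The list had 1 member higher and 3 lower in GA than in untreated roots at 120 min (median -0.16). In untreated roots 4 of 4 were higher at 120 than at 0 min (median 0.23, against -0.020 over all tested probe sets). CML38 is 1 of these, and its difference was -0.0043 without untreated replicate 2 at 0 min. The count over time shares its arrays with those of the other lists.

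CML38 has been linked in roots to the growth-inhibiting RALF peptides and, under low oxygen, to the small RNA factor SGS3 and to autophagy. Of the 46 genes listed for these, 9 were matched to no single gene by name, 18 had a named probe set and 16 were tested, with 0 called by limma in each comparison and RALFL33 alone, in GA roots against 0 min, at an unadjusted p under 0.05. In GA against untreated roots at 120 min 10 were higher and 6 lower (median 0.056, against 0.0092 over all tested probe sets). Over time 14 were higher and 2 lower (median 0.12, against -0.020). The RALF peptide gene RALFL33 read 416 and 408 in GA roots, 343 and 434 in untreated roots at 120 min, and 257 and 278 at 0 min. Its arrays at 120 min, with or without the GA label, were all above those at 0 min, with differences of 0.50 (untreated) and 0.60 (GA), where 11.3% and 13.0% of all tested probe sets were likewise higher without overlap, and it did not pass (limma adjusted p = 1, unadjusted p = 0.054 and 0.0282). FER, the receptor kinase for RALF peptides, differed by -0.22 between GA and untreated roots at 120 min and by 0.13 over time. ATG8B, ATG8F and ATG8H, which coat autophagosomes, differed by 0.29, 0.022 and -0.14 between GA and untreated roots and by 0.086, 0.42 and 0.40 over time. RALFL34 differed by 0.19 and read 682 on GA replicate 1 against 309 to 511 on the other 5 arrays.

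The genes whose pattern over the 6 arrays was most like that of STZ or CML38 were sought by Pearson correlation of log2 signals among 7453 tested probe sets with 1 named gene. For STZ these were AT1G49050 (0.99), AT2G19340 (0.99), AT1G80940 (0.99), AT4G17900 (0.99) and AT5G06330 (0.98). AT4G17900 read 154 and 206 in GA roots, 112 and 190 in untreated roots at 120 min, and 109 and 113 at 0 min, and so had the low untreated replicate 1 and the high replicate 2 of STZ. For CML38 they were AT5G17910 (0.99), AT5G63490 (0.99), AT5G05210 (0.98), AT1G64460 (0.98) and AT2G41040 (0.97). AT5G17910 read 87.6 and 86.2 in GA roots, 96.0 and 89.6 in untreated roots at 120 min, and 93.1 and 64.1 at 0 min, with untreated replicate 2 at 0 min as the low array. These loci had no symbol in the annotation used. With 6 points and this many probe sets, high values arise readily, and the arrays share their scaling and their replicate offsets.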

How the data were processed

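The authors deposited 1 MAS5 intensity per probe set and array, on a linear scale; the submitters' processing notes name MAS5 and GCOS, and target was made by one-cycle biotin labelling per the labels' protocols. No genome build is given in the sources used here. Groups and replicate numbers came from sample titles. The labels do not say whether replicates are separate cultures, so p-values may reflect technical spread only; with 2 arrays a group, precision is low. Members and gene lists were chosen with earlier results of these data known.

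Of 22810 probe sets, 64 were array controls. Of the other 22746, 13513 matched 1 gene in a platform annotation dated 2016, 503 several, and 8730 were not listed there. The names of 13436 of the 13513 were updated through the RefSeq table of assembly TAIR10.1. On the log2(signal + 16) scale, which understates differences of dim genes, the 13647 probe sets with a mean signal above the 40th percentile were tested with limma 3.58.1 in R 4.3.3 (lmFit, eBayes with trend, all groups in 1 fit, 3 residual and 5.80 prior degrees of freedom), two-sided, with Benjamini-Hochberg adjustment over all of them at 0.05. The fit was also run on simulated data with independent noise of equal size on all arrays. That run held neither the replicate offsets nor the unequal quality of these arrays. Of each list, markers included, the members with the 3 largest differences in either of the first 2 comparisons were named. Other members are named as relatives or neighbours of STZ and CML38 or as lying below the filter, and CML23, WRKY6 and AT3G10040 were chosen after their values were seen. Nearest patterns are the 5 highest correlations per gene. Alternatives were other pseudocounts, filters and scalings, eBayes without a trend, a fit of 2 groups, the replicate number as a block, and each array left out.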

Additional observations from a re-analysis of the deposited data

How the results depend on the processing

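Of 87 values of STZ and CML38 under the alternatives, 84 kept their direction and none passed the threshold. The 3 that turned sign each left out 1 array. Many of the 87 could not move, so the count does not measure stability. Other filters and fits change only the SE and p, and leaving out an array of the group not compared leaves the difference as it was. With each array left out, the STZ difference lay between 0.033 and 1.097 for GA against untreated roots at 120 min, between -0.11 and 0.96 for untreated roots at 120 against 0 min, and between 0.75 and 1.23 for GA roots against 0 min. That of CML38 lay at -0.13 to -0.073, -0.0043 to 0.65 and -0.11 to 0.55 in the same comparisons. Pseudocounts 1 and 64, filters, scalings and fits gave 0.38 to 0.67, 0.29 to 0.50 and 0.67 to 1.17 for STZ, and -0.20 to -0.050, 0.14 to 0.55 and 0.092 to 0.40 for CML38; the filter at the 60th percentile removed CML38. The count of probe sets called stayed at 0, except that without GA replicate 2 it was 7 for GA roots against untreated roots at 0 min, all lower and neither STZ nor CML38 among them, a range of 0 to 7 over these fits; 1 GA array was left in that fit, and the lone array is assumed to vary like the others. That lone GA array was GA replicate 1, the array with the actin ratio of 14.8. The replicate numbers were shared by the groups, and the differences between replicates correlated at 0.31 to 0.36 between groups, and the actin ratio was higher on replicate 1 in each group, but no label says that a number marks a shared batch. Between arrays of the same number, STZ differed by 0.85 and 0.28 for GA against untreated roots at 120 min, by -0.12 and 0.97 for untreated roots over time, and by 0.73 and 1.25 for GA roots against 0 min (replicates 1 and 2). With the replicate number as a block 0 probe sets were called, and the STZ difference of 0.57 between GA and untreated roots at 120 min had an unadjusted p of 0.0688 (adjusted p = 0.998), that of 0.42 over time one of 0.156 (0.999) and that of 0.99 against 0 min one of 0.0055 (0.826). For CML38 the differences with the block were -0.10, 0.32 and 0.22 (adjusted p = 0.998, 0.999 and 0.925). The 95% intervals of about 0.8 in log2 on each side limit what 2 arrays a group can show, and CML38 lay close to the dim end of the tested probe sets.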
